A study of Mus musculus with 12 samples.

Results

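The genes described here make cholesterol or are controlled with its synthesis. They are 27 genes taken by symbol from a table of 46095, comprising 19 enzymes from acetyl-CoA to cholesterol, 5 regulators of the sterol response (Srebf1, Srebf2, Scap, Insig1 and Insig2) and 3 further sterol-responsive genes (Stard4, Fads1 and Fads2). All 27 had enough counts to be among the 13743 genes tested. Their levels were measured by RNA sequencing in 12 samples of whole pancreas from mice at postnatal day 56, 6 of them C57BL/6J wild type (WT 1 to 6) and 6 Axl-/-Mertk-/- (AMKO 1 to 6), which lack 2 receptor tyrosine kinases for dying cells. Both groups had pancreatitis from 10 hourly injections of caerulein, a secretagogue of acinar cells, at 100 µg/kg, and tissue was taken 12 h after the first of them. No pancreas without caerulein was analysed here, so each value compares genotypes within pancreatitis. No label names the strain on which the AMKO line was bred, so strain and receptor loss cannot be told apart.

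Cholesterol is built from acetyl-CoA through mevalonate, isoprenoid diphosphates and squalene to a series of sterols. When sterols run low in the endoplasmic reticulum, SCAP carries the transcription factors SREBP1 and SREBP2 (encoded by Srebf1 and Srebf2) to the Golgi, where proteases release their active parts, and these switch on the enzyme genes together. INSIG1 and INSIG2 hold SCAP back when sterols are plentiful. Insig1 is itself a target of SREBP, so in many cells its mRNA rises and falls with those of the enzymes. Pancreatic acinar cells use large amounts of membrane lipid for their secretory granules.

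Library totals ran from 10668637 to 15184371 counts. Axl, the targeted gene, stood between 44.4 and 77.1 CPM (counts scaled to library size) in wild type and between 5.60 and 11.5 CPM in AMKO, whereas Mertk, counted over the whole gene, had a log2 fold change of -0.03 (SE 0.30), and such counts do not show which exons were read. Libraries also differed within genotypes. Alb, the main plasma protein of the liver, was at 0.12 to 0.57 CPM in WT 1 to 3 and at 13.0 to 19.1 CPM in the other 9 libraries. WT 3, WT 6, AMKO 3 and AMKO 6 were low in the leukocyte marker Ptprc (12.4 to 19.5 CPM, against 29.5 to 121 CPM in the other 8 libraries). Pancreatic identity was plain, with the acinar enzyme gene Cpa1 at 12717 to 25769 CPM in every library.

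Insig1 fell in AMKO to about 51.3% of wild type, and no enzyme of cholesterol synthesis among the 27 genes passed the test. Of the 27 genes, 2 were lower in AMKO at an adjusted p under 0.05 over all genes tested by edgeR's quasi-likelihood test, and 0 were higher (beside 3.37% and 2.41% of all genes). These 2 were Insig1 and Fads1, a fatty acid desaturase. They amount to 7.41% of the set, beside 5.78% of all genes tested (794 of 13743) called in either direction, so the share of calls was close to that of the table as a whole. At an unadjusted p under 0.05, 8 of the 27 were lower and 0 higher, or 29.6%, beside 21.9% of all genes tested in either direction. DESeq2 called the same 2 lower and 0 higher, and limma voom called 3 lower, with Fads2 as the third, and 0 higher. The median log2 fold change of the set was -0.18, beside -0.002 over all genes tested. Of the 27 values, 20 lay below 0 (74.1%, beside 50.3% of all genes tested).

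**Figure D1:**
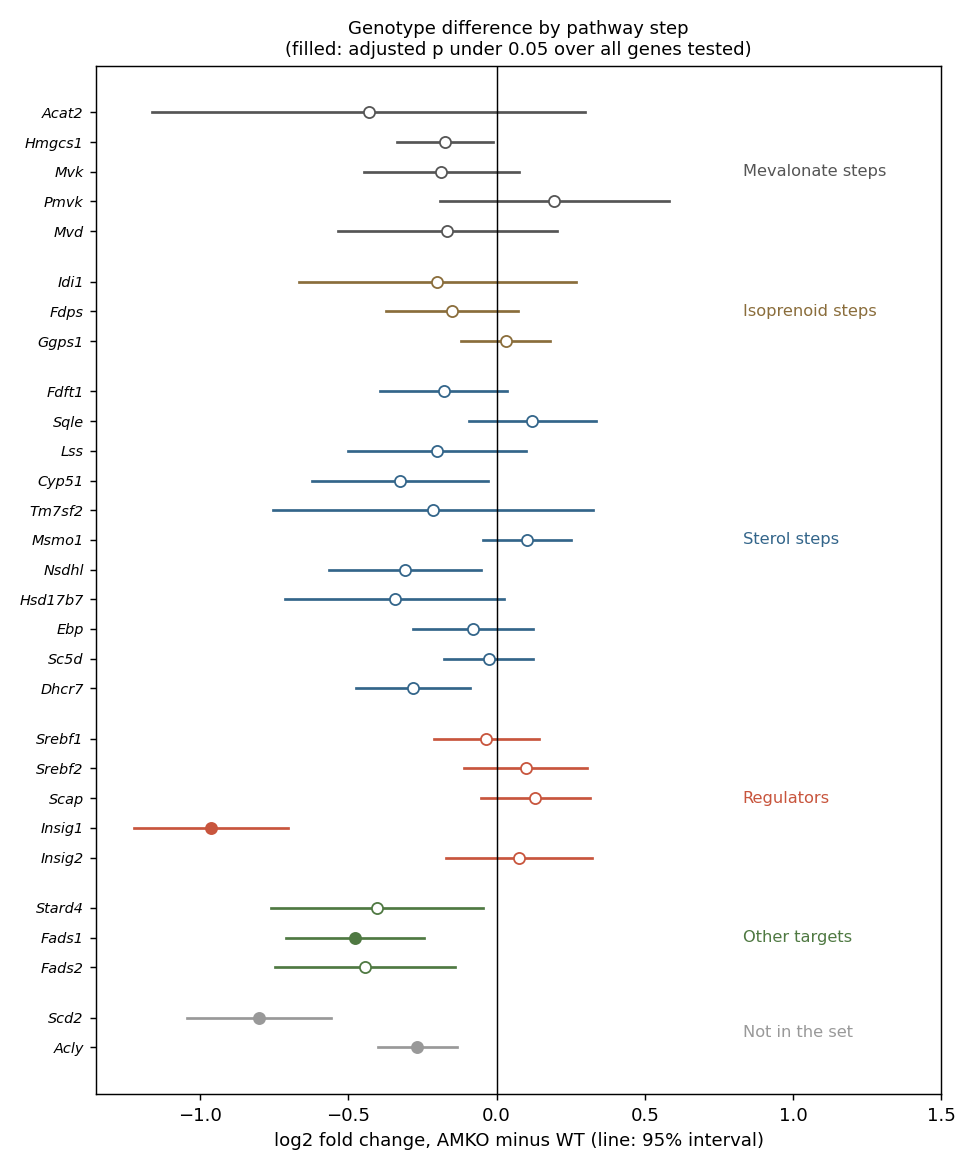
Log2 fold change (x axis, AMKO minus WT, 6 libraries each) for the 27 genes by pathway step, and for 2 genes outside the set, with 95% intervals as lines. Filled points passed the test: Insig1 at -0.96 stands apart from the other regulators, and the intervals of 16 of the 19 enzymes lie wholly above that of Insig1.

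Insig1 (ENSMUSG00000045294; chromosome 5, 28071363 to 28078662, plus strand, GRCm38) encodes the endoplasmic reticulum protein that retains SCAP. Its level ran from 536 to 654 CPM in wild type, with a median of 576 CPM. In AMKO it ran from 239 to 400 CPM, with a median of 277 CPM. All 6 AMKO libraries lay below all 6 wild type libraries, and AMKO 4 was the highest of them. Groups failed to overlap in 3.54% of the genes tested, and in 2.3% with AMKO lower, beside 1 of the 27 genes. The means were 583 ± 42.1 and 299.0 ± 62.9 CPM (SD, n = 6 each), or -0.96 on the log2 scale (SE 0.12, 95% interval -1.22 to -0.70, adjusted p = 8.57e-04 by edgeR). By p-value Insig1 ranked 22nd of the 13743 genes. It rested on 2205 to 9834 counts per library.

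The Insig1 difference was present in every subset of libraries examined. It was -0.996 (adjusted p = 0.019) against WT 4 to 6, the wild type libraries that carry liver transcripts as all AMKO libraries do, and -0.92 (adjusted p = 0.0208) against WT 1 to 3. Without the 4 leukocyte-poor libraries it was -0.85 (adjusted p = 0.0321). Leaving out any 1 of the 12 libraries gave values from -1.06 to -0.90, with adjusted p of 0.00368 at most. Females and males were mixed in both groups, and with sex as a term the value was -0.98 (adjusted p = 4.24e-04).

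**Figure D2:**
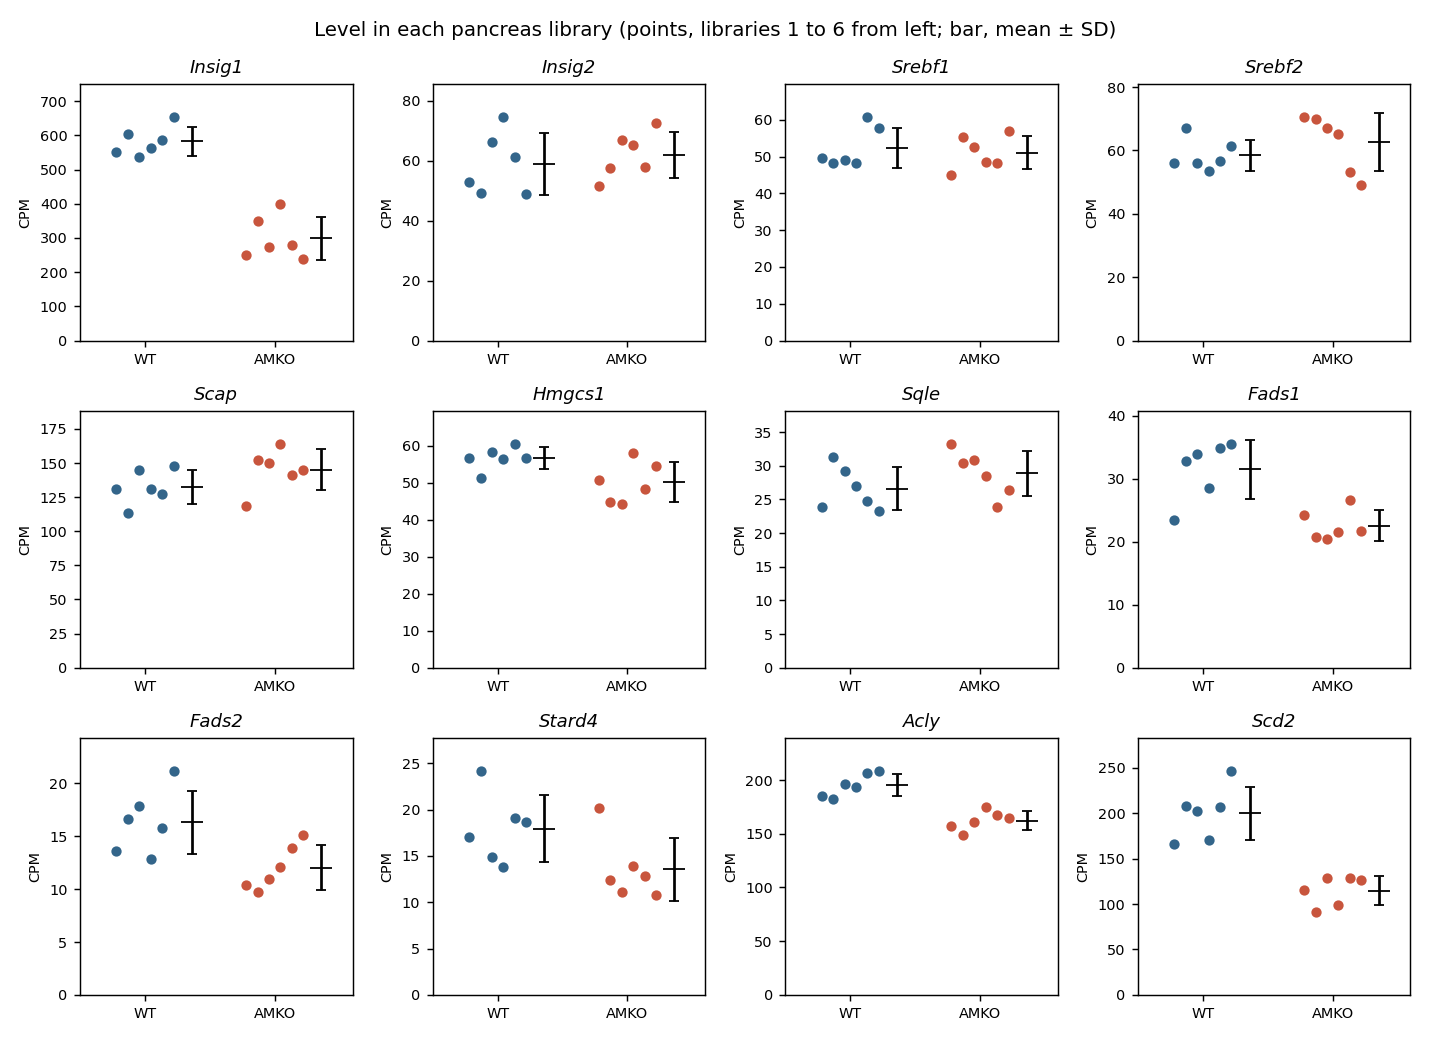
Levels (y axis, CPM from 0) of 12 genes in each library, with the mean ± SD of 6 libraries beside the points. Insig1 (536 to 654 CPM in WT, 239 to 400 CPM in AMKO), Scd2 and Acly separate the genotypes, whereas Insig2, Srebf1, Srebf2, Scap, Hmgcs1 and Sqle overlap.

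Insig1 was also by far the most abundant of these mRNAs. Per kilobase of exon, which allows genes to be compared, its mean level was 143 CPM over the 12 libraries. The next were Scap at 18.7 and Insig2 at 17.4 CPM per kilobase, followed by the squalene synthase gene Fdft1 at 14.1 and the sterol desaturase gene Sc5d at 13.1. At the low end were the isomerase gene Idi1 at 0.777 and the sterol reductase gene Tm7sf2 at 0.473. Copies or overlapping genes, described below, make the counts of Fdft1, Idi1 and Tm7sf2 uncertain. In all, 11 of the 27 genes had a near-identical copy or shared exonic bases with another gene. Besides Fdft1, Idi1, Tm7sf2, Fdps and Acat2, they were Hmgcs1, Lss, Cyp51, Srebf1, Scap and Ggps1. Scap shared 985 exonic bases with 5830462I19Rik on the opposite strand. Exon lengths are those of all annotated isoforms together, so a gene with long rare isoforms appears lower than its main transcript would.

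The stretches before the starts of Insig1, its paralogue Insig2 and the HMG-CoA synthase gene Hmgcs1 are shown as examples from the set. They come from RefSeq on GRCm38.p6, run 5′ to 3′ on the gene's strand and end before the annotated start. Capitals mark matches, on either strand, to the sterol response element TCACNCCAC, which SREBP binds. They also mark the box bound by the factor NF-Y, searched as CCAAT, and the GC box bound by factors such as SP1, searched as GGGCGG. A match on the opposite strand appears as the reverse complement of these letters. No match shown overlaps another.
Insig1 (chr5:28071162-28071362, plus strand): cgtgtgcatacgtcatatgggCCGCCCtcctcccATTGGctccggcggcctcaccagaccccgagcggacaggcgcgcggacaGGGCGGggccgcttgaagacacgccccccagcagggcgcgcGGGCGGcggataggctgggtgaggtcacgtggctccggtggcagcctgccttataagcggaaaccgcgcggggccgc
Insig2 (chr1:121332590-121332839, minus strand): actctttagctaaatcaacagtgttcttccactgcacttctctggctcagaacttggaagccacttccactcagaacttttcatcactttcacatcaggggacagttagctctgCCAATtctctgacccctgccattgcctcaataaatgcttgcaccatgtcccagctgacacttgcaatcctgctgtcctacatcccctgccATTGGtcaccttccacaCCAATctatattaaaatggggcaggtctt
Hmgcs1 (chr13:119690101-119690350, plus strand): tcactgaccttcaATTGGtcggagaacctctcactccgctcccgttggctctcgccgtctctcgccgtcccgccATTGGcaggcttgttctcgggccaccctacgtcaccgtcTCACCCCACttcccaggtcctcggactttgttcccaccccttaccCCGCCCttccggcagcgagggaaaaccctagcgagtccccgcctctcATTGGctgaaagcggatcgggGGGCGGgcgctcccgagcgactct

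Hmgcs1 held the sterol response element at position -137 from its RefSeq start, with 3 NF-Y boxes and 2 GC boxes. Insig1 held 1 NF-Y box and 3 GC boxes in these letters and no TCACNCCAC, and the Insig2 stretch held 3 NF-Y boxes. Further RefSeq starts of Insig2, not shown, held no NF-Y box and 1 GC box each. Of the 27 genes, 22 had RefSeq promoters, with 30 starts in all, and the 250 bases before each were searched. Those without one, and so not searched, were Sqle, Fdps, Fdft1, Fads1 and Stard4. The TCACNCCAC motif occurred in 1 of the 30, beside 1.05% of all 32851 starts in the table. Only this form was searched, so a variant of it, or a match farther from the start, would not be counted. The NF-Y box occurred in 66.7% of the 30 (33.8% of all starts) and the GC box in 76.7% (32.7% of all starts). NF-Y and SP1, which binds GC boxes, are known partners of SREBP on such promoters. A match is a stretch of letters and not a measured binding site.

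None of the other 4 regulators passed the test. Insig2, which shares the SCAP-holding function, was at 48.7 to 74.5 CPM in wild type (median 56.9) and 51.6 to 72.5 CPM in AMKO (median 61.5). Its log2 fold change was 0.08 (SE 0.12, 95% interval -0.17 to 0.32, adjusted p = 0.747 by edgeR). Insig1 exceeded Insig2 by 3.32 ± 0.32 log2 CPM in wild type and by 2.25 ± 0.34 in AMKO (SD, n = 6 each), and the ranges of 2.92 to 3.74 and 1.72 to 2.61 did not overlap. Srebf1 had a log2 fold change of -0.03 (95% interval -0.21 to 0.14, adjusted p = 0.844). Srebf2 stood at 0.10 (95% interval -0.11 to 0.31, adjusted p = 0.594), with AMKO libraries spread from 49.1 to 70.5 CPM around a wild type range of 53.5 to 67.1 CPM. Scap, at 133 ± 12.6 and 145 ± 15.2 CPM, had a log2 fold change of 0.13 (95% interval -0.05 to 0.31, adjusted p = 0.401). These are mRNA levels, and the cleavage that activates SREBP is not measured by them.

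Insig1 was also set against the enzymes library by library. The mean over the 19 enzymes was 3.80 ± 0.10 log2 CPM in wild type and 3.65 ± 0.085 in AMKO, a difference of -0.15 with overlapping ranges (3.67 to 3.93 and 3.56 to 3.76). Insig1 lay 5.39 ± 0.11 log2 units above that mean in wild type, and 4.55 ± 0.32 above it in AMKO (SD, n = 6 each). The wild type libraries ran from 5.21 to 5.53 and the AMKO libraries from 4.21 to 5.03, so the groups did not overlap. The difference of -0.84 ranged from -0.93 to -0.77 without any 1 library and was -0.74 without the 4 leukocyte-poor libraries. It is given as a description without a test, since it is a score over the set. AMKO 1 and AMKO 5 had enzyme means inside the wild type range (3.76 and 3.75) with Insig1 at 251 and 279 CPM. The enzyme means of AMKO 2, AMKO 3, AMKO 4 and AMKO 6 (3.56 to 3.63) lay below all wild type libraries.

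**Figure D3:**
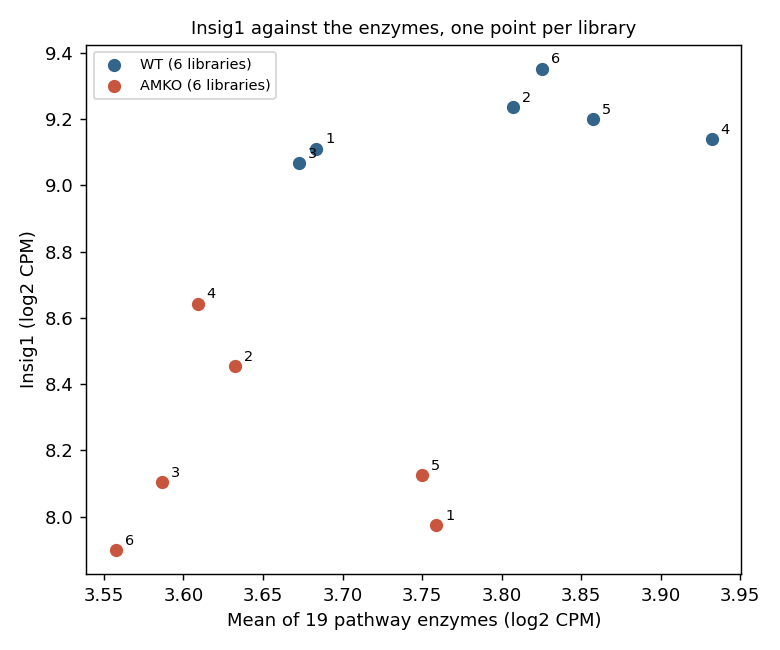
Insig1 (y axis, log2 CPM) against the mean of 19 enzymes (x axis, log2 CPM), 1 point per library with its replicate number. The enzyme means overlap between genotypes (3.67 to 3.93 in WT, 3.56 to 3.76 in AMKO) while Insig1 separates them (9.07 to 9.35 against 7.90 to 8.64).

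Within a genotype, no correlation of Insig1 passed with the 6 genes examined (Hmgcs1, Sqle, Idi1, Srebf1, Srebf2 and Insig2). Insig1 levels formed 2 clusters that are the genotypes, so correlations were taken inside each group of 6. They were adjusted over the 6 relations computed there, and with 6 libraries only a very high r could pass. In wild type, Pearson's r of Insig1 was -0.27 with Hmgcs1 (exact permutation p = 0.597), -0.31 with the squalene epoxidase gene Sqle (exact permutation p = 0.569) and 0.64 with Srebf2 (exact permutation p = 0.217). In AMKO the values were 0.15, 0.067 and 0.44 (exact permutation p = 0.769, 0.931 and 0.419). None of the 12 relations passed, with two-sided adjusted p from 0.55 to 0.953, and Spearman's rho ran from -0.71 to 0.71.

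None of the 5 mevalonate enzymes in the set was called by edgeR, DESeq2 or voom, and Hmgcs1 alone had an unadjusted edgeR p under 0.05. Hmgcs1, which makes HMG-CoA, ran from 51.4 to 60.4 CPM in wild type (median 56.6), and in AMKO from 44.4 to 58.2 CPM (median 49.7). Of the AMKO libraries, 4 lay below the wild type range and 2 inside it, and the log2 fold change was -0.17 (SE 0.075, 95% interval -0.34 to -0.01, adjusted p = 0.193 by edgeR). Mvk, Pmvk and Mvd, which phosphorylate mevalonate and decarboxylate it, had values of -0.19, 0.19 and -0.17, with adjusted p of 0.395 to 0.615. Acat2, the cytosolic acetyl-CoA thiolase, was thinly covered (14 to 57 counts) and had a wide interval (-1.16 to 0.30), and its counts are uncertain. It matches Tcp1, a gene at 287 CPM, in 98.7% of 445 aligned bases, and Acat3, at 0.80 CPM, in 97.7% of 1477.

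None of the 3 isoprenoid enzymes was called, nor had an unadjusted edgeR p under 0.05. Ggps1, which makes geranylgeranyl diphosphate for protein prenylation, averaged 28.3 ± 1.76 CPM in wild type, and the AMKO mean was 28.9 ± 1.71 CPM (0.03, 95% interval -0.12 to 0.18 on the log2 scale). Fdps, the farnesyl diphosphate synthase gene, stood at 42.5 ± 7.22 and 38.3 ± 2.34 CPM (-0.15, 95% interval -0.37 to 0.07, adjusted p = 0.422). Several near-identical copies and an overlapping gene on the same strand make its counts uncertain. Idi1, the isopentenyl diphosphate isomerase gene, had 21 to 59 counts per library and a log2 fold change of -0.20 (95% interval -0.67 to 0.27, adjusted p = 0.636). The counts of Idi1 are uncertain too, since it matches Gm13502 in 100% of 684 aligned bases and Gm48574 in 100% of 323.

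Among the 11 genes of the sterol steps, edgeR, DESeq2 and limma voom each called 0. At an unadjusted p under 0.05, edgeR gave 3 lower and 0 higher, DESeq2 3 lower and voom 5 lower. The edgeR share was 27.3% of the 11, beside 21.9% of all genes tested in either direction. The lowest adjusted p was that of Dhcr7, the last reductase on the way to cholesterol, at 17.2 to 20.7 CPM in wild type (median 19.5) and 12.9 to 17.4 CPM in AMKO (median 15.8). Its ranges met only at the edge, with 4 AMKO libraries below all wild type ones, which gave -0.28 on the log2 scale (SE 0.089, adjusted p = 0.0778 by edgeR). Nsdhl, a sterol dehydrogenase of the demethylation steps, had -0.31 (95% interval -0.57 to -0.05, adjusted p = 0.143), and Cyp51, the lanosterol demethylase, -0.33 (95% interval -0.62 to -0.03, adjusted p = 0.187). Sqle, the squalene epoxidase and an early control point of the sterol branch, had a value above 0 instead. It ran from 23.3 to 31.3 CPM in wild type and from 23.8 to 33.2 CPM in AMKO (0.12, 95% interval -0.09 to 0.33, adjusted p = 0.518). Msmo1, the methylsterol oxidase, was likewise at 0.10 (95% interval -0.05 to 0.25, adjusted p = 0.412), and Sc5d at -0.03 (95% interval -0.18 to 0.12).

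The remaining sterol enzymes were Lss, the lanosterol synthase (-0.20, adjusted p = 0.426), Hsd17b7, a ketoreductase (-0.34, adjusted p = 0.262), Ebp, the sterol isomerase (-0.08, adjusted p = 0.671), and Tm7sf2 (-0.21, adjusted p = 0.667). Fdft1 had -0.18 (adjusted p = 0.318), but it shares 774 exonic bases with Ctsb on the opposite strand, a gene at 781 CPM, so its counts are uncertain. Tm7sf2 shares 532 bases with Vps51 on the same strand. Across all 19 enzymes the AMKO level was between 74.1% and 114% of wild type, and for 16 of them the whole 95% interval lay above that of Insig1. The exceptions were Acat2, Tm7sf2 and Hsd17b7, all with wide intervals. A fall of the size seen for Insig1 was therefore outside the interval for most enzymes, although smaller differences were not.

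**Figure D4:**
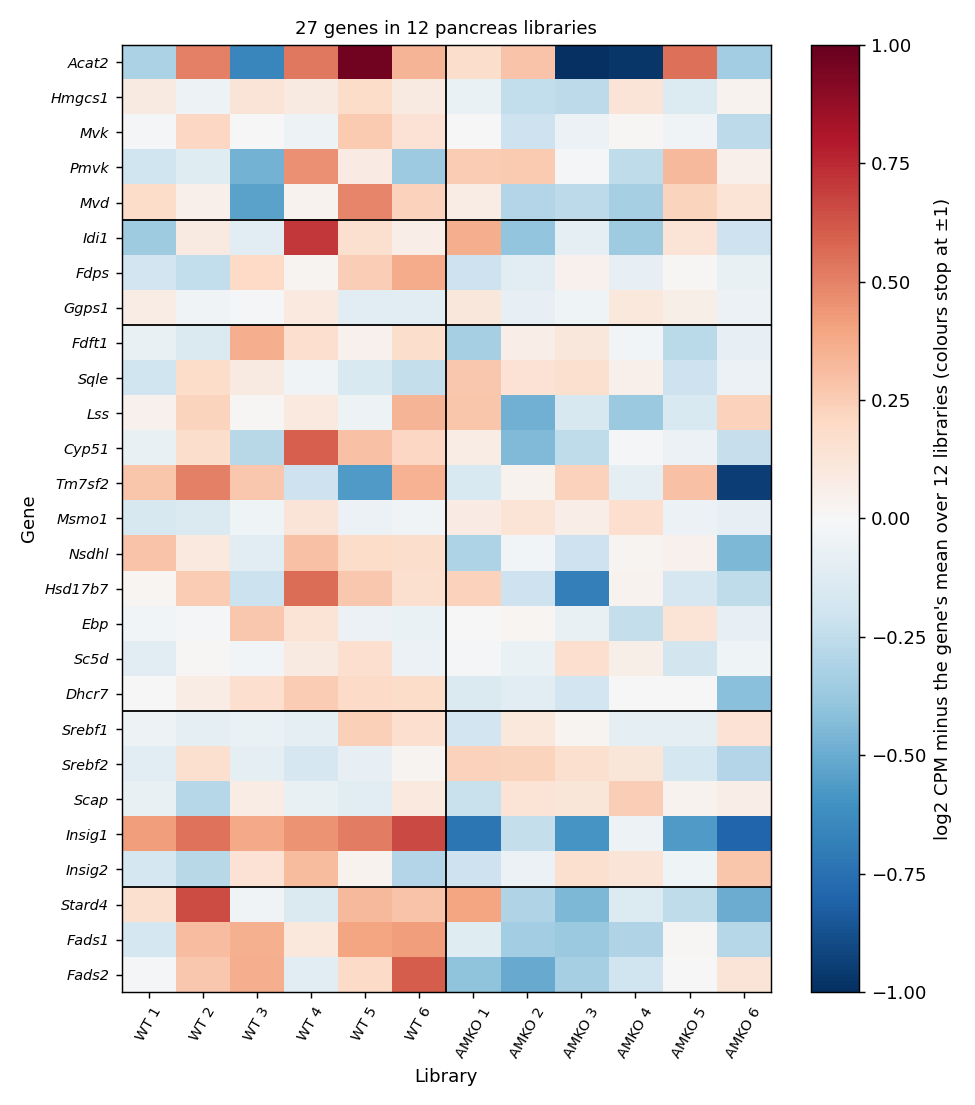
Log2 CPM of each of the 27 genes minus its mean over the 12 libraries (colour, clipped at 1 either way), with libraries on the x axis and genes in pathway order on the y axis. Insig1 is high in all WT and low in all AMKO libraries, Fads1 is low in most AMKO libraries, and in no enzyme row do the groups separate.

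Of the 3 further targets, Fads1 passed the test. Fads1, the delta-5 desaturase of polyunsaturated fatty acids, fell from 23.4 to 35.5 CPM in wild type (median 33.4) to 20.5 to 26.7 CPM in AMKO (median 21.6). WT 1, at 23.4 CPM, lay inside the AMKO range, while the other 5 wild type libraries lay above it. Its difference was -0.48 on the log2 scale (SE 0.11, adjusted p = 0.0213 by edgeR). Fads1 no longer passed without WT 2, AMKO 2, AMKO 3 or AMKO 6 (adjusted p = 0.0513 to 0.0564), with only WT 4 to 6 (0.0566) or only WT 1 to 3 (0.167) as controls, and without the 4 leukocyte-poor libraries (-0.36, adjusted p = 0.297), nor with total counts as the only scaling (0.0603). Fads2, the delta-6 desaturase encoded beside Fads1 on chromosome 19, ran from 12.9 to 21.1 CPM and from 9.69 to 15.1 CPM, and did not pass (-0.44, SE 0.14, adjusted p = 0.0814).

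Stard4, a cytosolic carrier of cholesterol, stood at -0.40 on the log2 scale (SE 0.17, adjusted p = 0.174). Its wild type libraries ran from 13.8 to 24.1 CPM, and 5 AMKO libraries from 10.8 to 13.9 CPM. AMKO 1 stood apart from these at 20.2 CPM, and without it Stard4 was called lower (-0.54, adjusted p = 0.0324 by edgeR). Of the 24 alternative fits, 1 called Stard4, the one without AMKO 1. Without another single library its adjusted edgeR p reached 0.359.

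Fatty acid synthesis, which SREBP1 controls, was examined beside cholesterol synthesis. Of 14 tested genes of fatty acid synthesis, 2 were lower and 0 higher by edgeR, and likewise by DESeq2 and by voom. The median log2 fold change was -0.15. The edgeR calls were 14.3% of the list, beside 5.78% of all genes tested in either direction. At an unadjusted edgeR p under 0.05, 3 were lower and 0 higher (21.4%, beside 21.9% of all genes tested in either direction). Scd2, a stearoyl-CoA desaturase, fell from 166 to 246 CPM in wild type to 91.1 to 129 CPM in AMKO without overlap (-0.80, SE 0.11, adjusted p = 0.00145), and it was called in all 24 alternative fits. Acly, which makes cytosolic acetyl-CoA, went from 195 ± 10.5 to 162 ± 8.91 CPM (-0.27, SE 0.063, adjusted p = 0.0238), a call lost without WT 6, AMKO 2, AMKO 3 or AMKO 6 (adjusted p = 0.0508 to 0.0609), in the 3 smaller subsets (0.109 to 0.275), with total counts as the only scaling (0.0539) and with no count filter (0.0839). Scd1 and Fasn were chosen after their values were seen. Scd1, the paralogue of Scd2, spread from 25.8 to 201 CPM in wild type and from 28.1 to 184 CPM in AMKO (-0.12, 95% interval -1.34 to 1.10), while Fasn, the fatty acid synthase gene, stood at 0.11 (95% interval -0.11 to 0.32).

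Of 13 genes for SREBP transport and processing and sterol-driven protein turnover, 1 was lower and 1 higher by edgeR, with a median of -0.015. These calls were 15.4% of the list, beside 5.78% of all genes tested in either direction. At an unadjusted edgeR p under 0.05, 2 were lower and 2 higher (30.8%, beside 21.9% of all genes tested in either direction). Erlin2, part of an endoplasmic reticulum complex for protein breakdown, ran from 58.5 to 69.7 CPM in wild type and from 44.9 to 56.3 CPM in AMKO (-0.33, SE 0.068, adjusted p = 0.0123), lost in the 3 smaller subsets (0.0893 to 0.179). Gpr146, a receptor that raises SREBP2 activity in liver cells, rose from 18.5 ± 2.12 to 27.1 ± 5.28 CPM (0.55, SE 0.13, adjusted p = 0.0264), a call lost without WT 3, WT 4, WT 6, AMKO 2, AMKO 3 or AMKO 4 (adjusted p = 0.0516 to 0.0676), in those subsets (0.15 to 0.233) and with total counts only (0.0975). Of 10 further genes of cholesterol synthesis and uptake, edgeR, DESeq2 and voom each called 0 (2 lower and 1 higher at an unadjusted edgeR p under 0.05, median -0.03). For this list and those that follow, the share of all genes tested at that p was 21.9% in either direction. Their 2 most abundant were Tmem97, a sterol-responsive membrane protein (-0.02, adjusted p = 0.966), and Npc2, a lysosomal cholesterol carrier (-0.07, adjusted p = 0.89). Of 13 genes of the liver X receptor response, efflux and esterification, edgeR and DESeq2 called 0 and voom 1 (2 lower and 0 higher at an unadjusted edgeR p under 0.05, median -0.002). Their 2 most abundant were Lpcat3, a phospholipid acyltransferase (0.18, adjusted p = 0.306), and Nr1h2, a liver X receptor (0.15, adjusted p = 0.382). Of 12 genes that use isoprenoids, edgeR and DESeq2 called 0 and voom 1 (2 lower and 1 higher at an unadjusted edgeR p under 0.05, median -0.018). Among them Nus1, for dolichol synthesis, stood at -0.01. Rabggta, which prenylates Rab proteins and was the gene called by voom, stood at 0.27 (adjusted p = 0.117 by edgeR).

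In whole tissue, fewer cells of a type and less RNA per cell cannot be told apart. Adipocytes, which make much lipid, were unevenly sampled. The summed level of 8 adipocyte markers ran from 151 to 591 CPM in wild type and from 124 to 408 CPM in AMKO, with 0 of 6 tested markers called (0 also at an unadjusted edgeR p under 0.05). All 6 had values below 0, with a median of -1.09 on the log2 scale, and 5 of the 8 were at 0 in some library. Adipoq, their defining hormone, was at 0.16 CPM in WT 3, where Insig1 was at 536 CPM, and at 17.5 CPM in AMKO 1, where Insig1 was at 251 CPM. The opposite pairing was seen in WT 5, with Adipoq at 32.1 CPM and Insig1 at 588 CPM, and in AMKO 6, at 0.11 and 239 CPM. The part of adipocytes in the Insig1 difference was not tested. AMKO 1 also held the highest Stard4 and Scd1 of the AMKO libraries, where their part was likewise not tested. Over the 12 libraries, the enzyme mean had r = 0.68 with the summed adipocyte markers and r = 0.73 with 5 fibroblast markers, the highest of the marker sums. With the sums for the other cell types, r ran from -0.41 (islet) to 0.44 (endothelial). These r are described across libraries that share their cell makeup.

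Summed markers of other cell types overlapped between the genotypes. The 8 acinar markers summed to 137005 to 211486 CPM in wild type, and in AMKO to 124098 to 249562 CPM, with 1 called (Bhlha15, an acinar transcription factor, 0.86). The 6 duct markers summed to 1332 to 1699 and 1104 to 1734 CPM, with 1 called (Epcam, -0.50), and Krt19 overlapped. The 4 endothelial markers summed to 106 to 160 and 83.0 to 136 CPM, with 1 called (Kdr, -0.83). The 8 leukocyte markers summed to 216 to 1027 and 336 to 1472 CPM, the 5 fibroblast markers to 396 to 608 and 311 to 582 CPM, the 5 islet markers to 299 to 852 and 139 to 2033 CPM, and the 8 liver markers to 3.27 to 42.8 and 24.1 to 55.9 CPM. None of these was called by edgeR. Only 3 fibroblast markers had an unadjusted edgeR p under 0.05, all lower in AMKO (60%, beside 21.9% of all genes tested in either direction). The called shares of the acinar, duct and endothelial markers were 12.5%, 16.7% and 25%, beside 5.78% of all genes tested in either direction. All duct and endothelial markers had values below 0, and all tested liver and islet markers had values above 0. The part of these cells in the Insig1 difference was not tested.

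Genes outside the 27 whose level resembled that of Insig1 most closely were found by Pearson's r over the 12 libraries. The search covered 10847 tested protein-coding genes that averaged at least 1 on the log2 CPM scale. Predicted genes and the 27 genes themselves were left out, here and for the enzyme mean. Those reported are Chst2 (0.96), Smox, Eif2ak4 and Fermt1 (0.94), all lower in AMKO. Because Insig1 separates the genotypes, such an r includes that separation. Inside a genotype r of these genes was lower, from 0.22 to 0.36 in wild type and from 0.70 to 0.90 in AMKO. Among the 27 genes, r with Insig1 over the 12 libraries was highest for Dhcr7 (0.85) and Nsdhl (0.82), and lowest for Pmvk (-0.43). The enzyme mean was followed most closely by Ddx58 (0.93), Zfp882, Parm1, Rab27a and Phf11d (0.91), with r of 0.76 to 0.93 in wild type and 0.79 to 0.99 in AMKO. Among the enzymes themselves, r with the mean of the others ran from 0.85 for Cyp51 and 0.78 for Hsd17b7 down to -0.33 for Sqle, so they did not vary as 1 block. The 27 genes lie on 15 chromosomes. None is on chromosome 2, which carries Mertk, and Dhcr7, the only one on chromosome 7, is 118 Mb from Axl.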

How the data were processed

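Total RNA came from a Trizol extraction, per the labels. Alignment used HISAT2 2.0.4 and mm10, per the submitters' processing notes. How reads were counted, and whether by strand, is not given in the sources. The authors deposited raw counts per gene, used as they stand. Any pair of same-genotype libraries differed beyond sampling noise (lowest chi-square 9.15 per degree of freedom). Nothing ties each sample to its own mouse, so p-values measure the spread between samples, which may be technical.

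AMKO was compared with WT by the quasi-likelihood test of edgeR 4.0.16 under R 4.3.3, after TMM scaling and filterByExpr, with Benjamini-Hochberg adjustment over all genes tested. The code was tested on simulated data. CPM use TMM-scaled library sizes, and log2 CPM a prior count of 2. Alternatives were DESeq2 1.42.0, limma 3.58.1 voom with quality weights for the libraries, and other scalings and filters. Further ones had sex or the replicate number as a term, or used subsets of libraries. Replicate numbers were not used as pairs in the main fit. Of 6 same-numbered pairs, 4 had r over 0.1, which does not settle whether the numbers pair the samples. The highest r were those of numbers 3 and 6 (0.35 and 0.32), which are the leukocyte-poor libraries in both genotypes. Correlations used exact permutation tests (SciPy 1.17.1). Copies were sought with BLAST 2.17.0 among GENCODE transcripts, at 95% identity over 300 bases.

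The 27 genes and the lists were chosen with earlier results of these data known. Named outside the 27 are up to 4 called genes of each list by smallest p, otherwise its 2 most abundant, defining cell markers, and the 5 genes most like Insig1 and the enzyme mean, except items not reported here, which were also left out of the lists and the enzyme mean. Called genes of marker lists, and Rabggta, were named after their values were seen.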

Additional observations from a re-analysis of the deposited data

Results flagged for a closer look

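In a search of 56 groups of 6 libraries (27 genes, and Insig1 minus the enzymes, in each genotype) for a library far from the rest of its group, 1 was found. Stard4 in AMKO 1 stood at 20.2 CPM, against 13.9 CPM in the nearest AMKO library, a gap of 0.668 of the group's whole range where 0.625 is the 95% critical value. Chance alone would give about 1 such group in 20.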

How the results depend on the processing

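The Insig1 difference was called with the same sign in all 24 alternative fits (-1.06 to -0.85, adjusted p of 0.0321 at most), and Insig1 relative to the enzymes stayed between -0.93 and -0.74 in all 20 alternatives. The number of genes lower among the 27 was 1 to 3 without any 1 library, and 1, Insig1 alone, with total counts as the only scaling, against WT 4 to 6, against WT 1 to 3 and without the 4 leukocyte-poor libraries. Over all genes the calls numbered 456, 167, 231 and 98 in these 4 settings, 1267 with DESeq2, 1664 with voom, and 411 to 1140 without 1 library. With the replicate number as a block, 910 genes and 3 of the 27 were called, Fads2 passing at adjusted p = 0.0496, while Insig1 stood at -0.98 (adjusted p = 0.00231). Same-numbered samples had r from -0.16 to 0.35, and 3 of 12 correlated best with their own number. Values near 0 changed sign against WT 1 to 3 for Idi1 (0.056), Mvd (0.0070), Sc5d (0.028) and Srebf1 (0.058), against WT 4 to 6 for Tm7sf2 (0.048), with total counts for Ggps1 (-0.0023) and without the leukocyte-poor libraries for Insig2 (-0.033). Without any 1 library Sc5d ran from -0.064 to 0.023 and Srebf1 from -0.062 to 0.013. The planned correlations over all 12 libraries are not given because Insig1 falls into 2 clusters, and their sign was not kept within wild type for Hmgcs1 (-0.27) and Srebf2 (0.64), nor within AMKO for Sqle (0.067), Idi1 (-0.65), Srebf1 (-0.039) and Srebf2 (0.44). The cause of these changes was not tested. Genes with few counts, such as Idi1, Tm7sf2 and Acat2, are limited by depth, and copies or overlapping genes make their counts uncertain as well.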
